A study of Mus musculus with 2 samples.

Results

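Guanylate-binding proteins and immunity-related GTPases were examined as a group of 10 genes, Gbp2, Gbp3, Gbp4, Gbp5, Gbp6, Gbp7, Gbp8, Gbp9, Irgm1 and Igtp, among 23248 genes listed in at least 1 of 2 RNA sequencing libraries of mouse regulatory T (Treg) cells. The members were chosen by name, found through their NCBI Gene IDs, and all 10 were listed in both libraries. The healthy library came from mice with the Foxp3tm3(DTR/GFP)Ayr allele on a B6.129(Cg) background given phosphate-buffered saline, and the leukemia library from mice of that strain that received 800000 leukemia cells without irradiation and were sorted at day 18. This reporter allele, carried by both groups, marks cells that express the Treg transcription factor Foxp3 with green fluorescent protein and a toxin receptor. Mice were 6 to 8 weeks old, and CD4+FOXP3-GFP+ cells were taken from spleen. A survival of 30 to 40 days is given for leukemia mice, which is later than the sort at day 18. The healthy library held 8929601 and the leukemia library 8897162 estimated reads. Each group held 1 library, so no difference below has a replicate check and none carries a p-value. The sources used here do not name the driver of the leukemia or the number of mice behind a library.

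Guanylate-binding proteins (GBPs) are large GTPases that cells make when interferon, above all interferon-gamma, reaches them. They coat the membranes of intracellular bacteria and of parasite vacuoles and help to open them to autophagy proteins and inflammasome caspases. The smaller immunity-related GTPases act on the same vacuoles. Irgm1 and Igtp (also called Irgm3) belong to their regulatory branch, sit on membranes of the host cell and keep the other members inactive there. In T cells, Irgm1 is known for protecting activated CD4 cells from death in the presence of interferon-gamma. The mouse GBP genes lie in a cluster on chromosome 3 (Gbp2, Gbp3, Gbp5 and Gbp7 among them) and in another on chromosome 5 (Gbp4, Gbp6, Gbp8 and Gbp9), while Irgm1 and Igtp lie on chromosome 11.

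Short elements that interferon signalling acts through were looked for in the promoters of Gbp2, Gbp3, Gbp5, Gbp7, Irgm1 and Igtp. RefSeq promoter windows of GRCm38.p6, each holding 250 bases before and 50 after a start site, were matched for these 6 of the 10 members and for none on chromosome 5. They were searched on both strands for the core of the interferon-stimulated response element (ISRE), which interferon regulatory factors bind and which was taken as GAAA and GAAA with any 2 bases between them, or TTTC and TTTC likewise on the other strand, and for the gamma-activated site (GAS; TTCNNNGAA, which reads alike on both strands). At least 1 window of each of the 6 genes held an ISRE match, against 3.99% of all 27025 genes with a window. GAS matches were found in 3 of the 6 genes, Gbp5, Gbp7 and Igtp, against 9.55% of all genes with a window. Among genes of other lists with a window, an ISRE match was held by 4 of 6 other interferon-inducible GTPases, 10 of 15 type I interferon response genes, 4 of 21 interferon-gamma response genes, 2 of 13 interferon-gamma signalling genes and 0 of 15 T cell receptor signalling genes. A match describes the letters and does not show that a factor was bound in these cells. The 180 bases upstream of the start site are printed 5′ to 3′ on the gene's own strand, with each ISRE and GAS match inside them in capitals, to show where the matches lie. They come from chr3:142620483-142620662 (Gbp2, plus strand), chr3:142559864-142560043 (Gbp3, plus strand), chr3:142496754-142496933 (Gbp5, plus strand), chr3:142530156-142530335 (Gbp7, plus strand), chr11:48871421-48871600 (Irgm1, minus strand) and chr11:58199376-58199555 (Igtp, plus strand).
Gbp2: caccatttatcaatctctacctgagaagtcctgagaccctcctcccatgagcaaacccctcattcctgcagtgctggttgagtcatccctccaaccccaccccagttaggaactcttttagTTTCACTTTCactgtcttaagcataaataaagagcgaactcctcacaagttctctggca
Gbp3: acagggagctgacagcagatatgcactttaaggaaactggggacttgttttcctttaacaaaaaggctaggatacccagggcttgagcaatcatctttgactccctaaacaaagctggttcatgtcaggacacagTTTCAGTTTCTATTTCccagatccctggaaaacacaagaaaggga
Gbp5: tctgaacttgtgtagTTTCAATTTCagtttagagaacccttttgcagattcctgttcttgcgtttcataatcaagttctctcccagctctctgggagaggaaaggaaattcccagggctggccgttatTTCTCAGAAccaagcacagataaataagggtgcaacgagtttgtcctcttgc
Gbp7: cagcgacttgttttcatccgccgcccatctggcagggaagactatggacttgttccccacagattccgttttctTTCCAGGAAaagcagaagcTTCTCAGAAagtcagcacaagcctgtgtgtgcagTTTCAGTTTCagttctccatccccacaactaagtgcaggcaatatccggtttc
Irgm1: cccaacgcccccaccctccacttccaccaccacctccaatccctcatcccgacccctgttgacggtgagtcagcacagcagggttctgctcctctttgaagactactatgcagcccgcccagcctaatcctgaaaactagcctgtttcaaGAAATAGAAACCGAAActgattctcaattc
Igtp: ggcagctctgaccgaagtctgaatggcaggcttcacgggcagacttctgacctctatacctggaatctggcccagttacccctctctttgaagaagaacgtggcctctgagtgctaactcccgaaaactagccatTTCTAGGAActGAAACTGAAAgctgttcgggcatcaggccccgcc
In 5 of the 6 genes an ISRE match began 24 to 59 bases before the start site; in Gbp5 it began 165 bases before it, and a GAS match began at 52 bases, with another further upstream than the printed stretch. Gbp3 and Irgm1 each held a pair of overlapping ISRE matches, seen as 1 run of capitals. A further start site of Gbp3 had a window with no match to either motif. The ISRE matches of Gbp3 began 45 and 39 bases before the start site, that of Gbp2 at 59 bases and that of Gbp7 at 53 bases. GAS matches were found in Gbp7 but not in Gbp2 or Gbp3. Whether these letters bear on the transcript levels that follow was not tested.

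All members were well expressed in both libraries, and 9 of the 10 were lower in the leukemia library. Values are FPKM, fragments per kilobase of transcript per 1000000 fragments, as the authors deposited them, with 95% intervals that cover counting error only. Igtp (NCBI Gene 16145) stood highest, at 174 FPKM (168 to 180) in the healthy and 126 FPKM (121 to 131) in the leukemia library. Gbp6 (100702) was the next in the healthy library at 107 FPKM (103 to 110) and stood at 51.0 FPKM (48.7 to 53.5) in the leukemia library. Irgm1 (15944) was at 84.5 FPKM (80.4 to 88.7) and 59.5 FPKM (56.1 to 63.1).
The other members covered a narrower range. Gbp2 (14469) is a GBP that carries a lipid anchor and gathers on parasite vacuoles. Its level was 80.7 FPKM (77.0 to 84.5) in the healthy and 54.3 FPKM (51.2 to 57.4) in the leukemia library. Gbp4 (17472) stood at 69.1 and 42.1 FPKM, Gbp9 (236573) at 60.2 and 32.3 FPKM, and Gbp8 (76074) at 55.3 and 33.6 FPKM. Gbp7 (229900), which takes part in delivering autophagy and oxidase proteins to vacuoles, was at 56.9 and 38.3 FPKM. Gbp5 (229898), a lipid-anchored GBP linked to inflammasome activation, was lowest in both libraries at 36.2 and 24.3 FPKM. Gbp3 (55932) was the 1 member that was not lower. Its level was 49.6 FPKM (46.8 to 52.5) in the healthy and 52.1 FPKM (49.1 to 55.0) in the leukemia library, and these intervals overlap. In bulk RNA such as this, fewer cells of a type and less RNA per cell cannot be told apart.

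**Figure D1:**
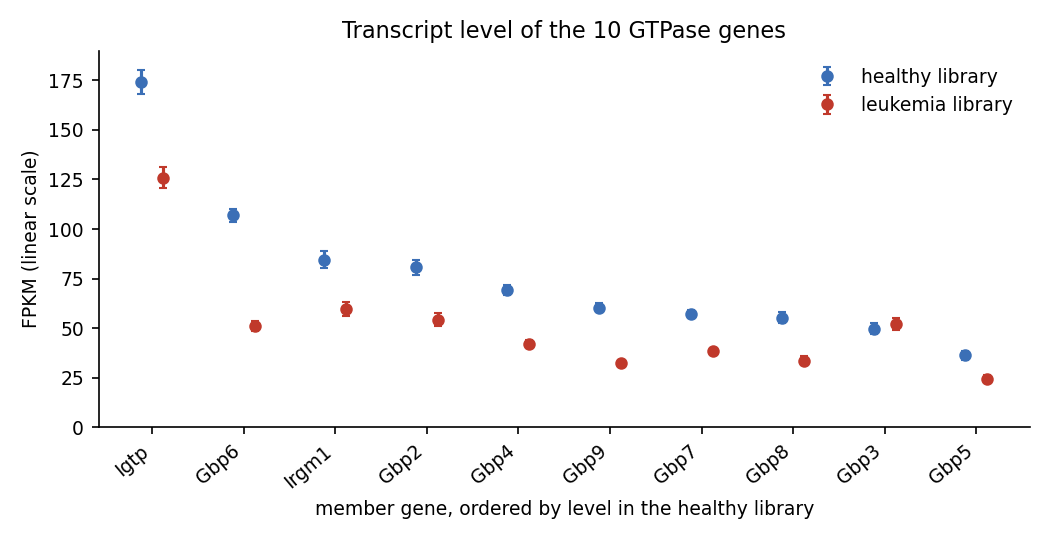
FPKM (linear axis) of the 10 members in the healthy (blue) and leukemia (red) library, ordered by the healthy level, with error bars for the 95% counting interval. Gbp6 stands second in the healthy library at 107 FPKM and at rank 5 in the leukemia library at 51.0 FPKM. The points of Gbp3 overlap at 49.6 and 52.1 FPKM.

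The order of the levels differed between the libraries. In the healthy library Igtp, Gbp6 and Gbp4 were each apart from the next member by more than counting error. The intervals of Irgm1 and Gbp2 overlapped, as did those of neighbours along the run of Gbp9, Gbp7, Gbp8 and Gbp3. Overlap of intervals does not show that the levels were equal. Gbp6 held rank 2 in the healthy and rank 5 in the leukemia library, and Gbp3 rank 9 and rank 4. In the leukemia library the intervals of Irgm1 and Gbp2 overlapped, as did those of Gbp2, Gbp3 and Gbp6, and those of Gbp8 and Gbp9. Every member stayed well above the middle of the transcriptome: among 13717 genes that reached 1 FPKM in at least 1 library, the members lay between percentiles 82.7 and 97.4 in the healthy and between 72.9 and 95.7 in the leukemia library.

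Set against each other as reads, the members ran from Gbp6, at the lowest ratio, to Gbp3, at an even one. The read ratio is the estimated count in the leukemia library over that in the healthy library, each divided by its library total, with an exact (Clopper-Pearson) 95% interval for counting error. Gbp6 had the lowest ratio, 0.485 (0.458 to 0.513), on 3651 and 1763 reads. Gbp9 followed at 0.556 (0.522 to 0.593), Gbp4 at 0.609 (0.573 to 0.647) and Gbp8 at 0.613 (0.563 to 0.668), so that the 4 chromosome 5 members held the 4 lowest ratios. However, the intervals of Gbp4 and Gbp8 overlap those of Gbp2, Gbp5 and Gbp7, and that of Gbp8 also overlaps that of Irgm1. Gbp7, Gbp2 and Gbp5 lay together at 0.673 with intervals between 0.609 and 0.744.
Irgm1 and Igtp were slightly higher at 0.703 (0.651 to 0.759) and 0.723 (0.685 to 0.763). Gbp3 stood alone at 1.05 (0.968 to 1.14), on 1159 and 1213 reads, and its interval holds 1. On the log2(FPKM + 1) scale, with a pseudocount of 1 FPKM, the members ran from -1.05 for Gbp6 to 0.07 for Gbp3, with a median of -0.56 beside 0.02 for all genes tested. The sign for Gbp3 depends on the scaling: it was -0.01 when FPKM was rescaled to 1000000 per library.

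**Figure D2:**
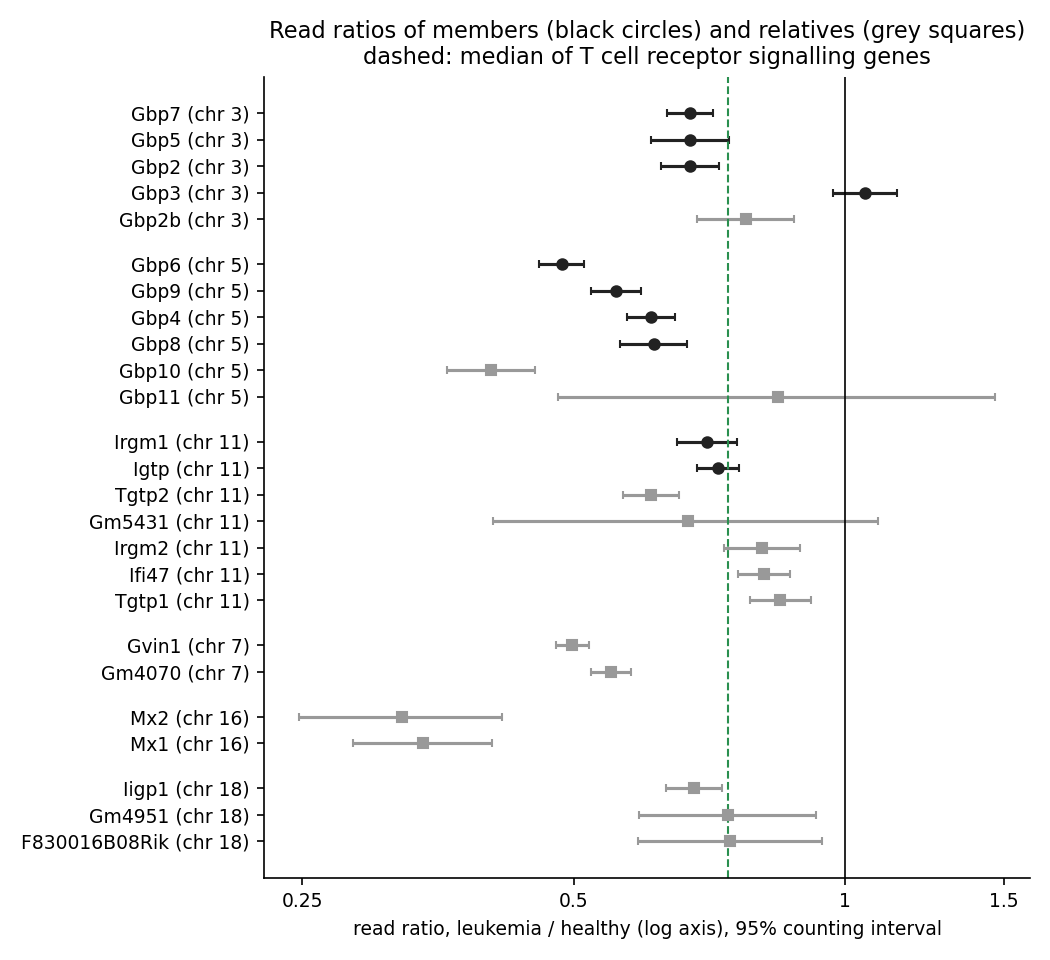
Read ratio, leukemia over healthy (log axis), of the members (black circles) and of the other interferon-inducible GTPases (grey squares) by chromosome, with 95% counting intervals; the solid line marks 1 and the dashed line the median of T cell receptor signalling genes, 0.741. The chromosome 5 members lie from 0.485 to 0.613, left of the other members, and Gbp3 is the 1 member at 1.

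A gene was called when its log2 ratio reached 1 in size, which is a size limit, not a statistical test. By that rule 1 of 10 members, Gbp6, was at least 2-fold lower, where 1.95% of all genes tested were, and 0 members were at least 2-fold higher, where 6.55% were. The read-ratio interval lay wholly below 1 for 9 of 10 members, against 23.5% of all genes, and wholly above 1 for 0 members, against 29% of all genes. All members are deeply sequenced, which narrows their intervals. Among the 2826 genes with at least 650 reads in both libraries, a limit set after seeing that every member passes it, 45.7% had an interval below 1 and 28.9% above 1.

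T cell genes were lower in the leukemia library too, and this sets a second baseline. The 19 T cell receptor signalling genes had a median read ratio of 0.741, and the 8 Treg markers (Foxp3, Cd4, Il2ra and others, all present in both libraries) a median of 0.668, next to 0.673 for the members. Foxp3 itself had a read ratio of 0.602 (0.571 to 0.636). Measured against the T cell receptor signalling median, the interval of 6 of 10 members lay wholly below it, against 4.51% of all genes and 8.03% of genes with at least 650 reads in both libraries. The same held for 6 of 8 Treg markers, 7 of 15 other interferon-inducible GTPases and 6 of the 19 T cell receptor signalling genes that set the median. The 6 members were Gbp4, Gbp6, Gbp8 and Gbp9 of chromosome 5, and Gbp2 and Gbp7 of chromosome 3. The intervals of Gbp5, Irgm1 and Igtp held the T cell median, and that of Gbp3 lay above it, as for 63.5% of all genes and 78.4% of the deeply sequenced ones. With FPKM centred on the T cell genes, the median of the members was -0.14, where the median of all genes was 0.41, Gbp6 was at -0.62, under 2-fold, and Gbp3 at 0.50.

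RNA of other cells was present, and the markers of these cells differed between the libraries in both directions. Red pulp macrophage markers were detected in both libraries, none at 0, and 11 of 12 had an interval below 1. Their summed level was 999 FPKM in healthy and 566 FPKM in leukemia cells, with a median read ratio of 0.512. Examples were C1qa (173 and 96.6 FPKM) and Vcam1 (111 and 46.2 FPKM). Cd68 was the exception and was higher in the leukemia library (healthy 39.6, leukemia 69.0 FPKM), with a read ratio of 1.74 (1.55 to 1.96). All 11 progenitor and leukemia markers were at least 2-fold higher, from a sum of 16.0 to 1307 FPKM. The 5 monocyte markers summed to 94.6 and 520 FPKM, and Ly6c2 alone was at 23.7 and 437 FPKM. Of the other monocyte markers, Lyz2 was at 51.7 and 61.5 FPKM, Ccr2 at 13.3 and 13.6 FPKM, Cd14 at 4.94 and 3.61 FPKM and Itgam at 1.01 and 5.01 FPKM. The 6 B cell markers summed to 15.4 and 26.5 FPKM, most of it Cd79b at 12.0 and 22.4 FPKM. Neutrophil markers summed to 2.85 and 5.36 FPKM, dendritic cell markers to 4.60 and 4.54 FPKM, and endothelial markers to 60.0 and 60.3 FPKM. Nearly all of the endothelial sum was Pecam1, which leukocytes also express, at 58.2 and 58.5 FPKM, with Cdh5 at 1.41 and 1.47 FPKM and Kdr at 0.40 and 0.36 FPKM. Macrophages and monocytes can express GBPs, and the part of these cells in the members' values was not tested.

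The chromosome 5 members, summed, differed from those of chromosomes 3 and 11 by more than counting error, while the intervals of chromosomes 3 and 11 overlapped. Summed over Gbp4, Gbp6, Gbp8 and Gbp9, reads went from 10548 to 5811, a ratio of 0.553 (0.535 to 0.571). The sum over Gbp2, Gbp3, Gbp5 and Gbp7 gave 0.737 (0.711 to 0.765), and 0.673 (0.646 to 0.702) when Gbp3 was left out, still without overlap with chromosome 5. Irgm1 and Igtp together gave 0.716 (0.685 to 0.748). Over all 10 members, reads went from 22203 to 14272, from 0.249% to 0.160% of each library, a ratio of 0.645 (0.632 to 0.659).
Such sums matter because related genes share sequence, and the RSEM program shares out reads that fit several genes by estimate. In GENCODE M21 transcripts, 70.7% of the distinct 50-base stretches of Gbp6 also occurred in another gene. Of all its stretches, 65.0% occurred in Gm43302, a gene model on chromosome 5 that was not analysed here, and 45.9% in Gbp10. For the other members the share was 18.1% for Gbp8 and at most 12.7% elsewhere. The single value of Gbp6 is therefore uncertain, whereas Gbp4 and Gbp9, with 7.70% and 8.05%, are little exposed. Gbp6 and Gbp10 summed gave a ratio of 0.466 (0.443 to 0.491), a sum that leaves out Gm43302. The sum over the chromosome 5 members leaves out both Gbp10 and Gm43302, and it was not taken without Gbp6. All members without Gbp6 gave 0.677 (0.662 to 0.692). Gbp3 shared 3.75% of its stretches, with Gbp7 the closest gene.

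The members' shares of the family's reads, which no scaling of the libraries can change, differed in both directions. Gbp6 made up 16.4% (16.0 to 16.9) of the members' reads in the healthy and 12.4% (11.8 to 12.9) in the leukemia library. Gbp9 went from 12.2% (11.8 to 12.7) to 10.5% (10.0 to 11.1). Gbp3 went the other way, from 5.22% (4.93 to 5.52) to 8.50% (8.05 to 8.97), and Igtp from 14.5% (14.0 to 15.0) to 16.2% (15.6 to 16.9). These 4 pairs of exact intervals did not overlap, and the pairs of the other 6 members did. The intervals are narrow because the shares rest on 22203 and 14272 reads in all. The same count was not made for other groups of genes, so it cannot be read as particular to this family. Shares of a fixed total depend on each other: Igtp had a larger share in the leukemia library although its read ratio was 0.723 (0.685 to 0.763). The value of Gbp6, uncertain for its shared sequence, enters every share. Shares of reads depend on transcript length and are compared here only within a gene.

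**Figure D3:**
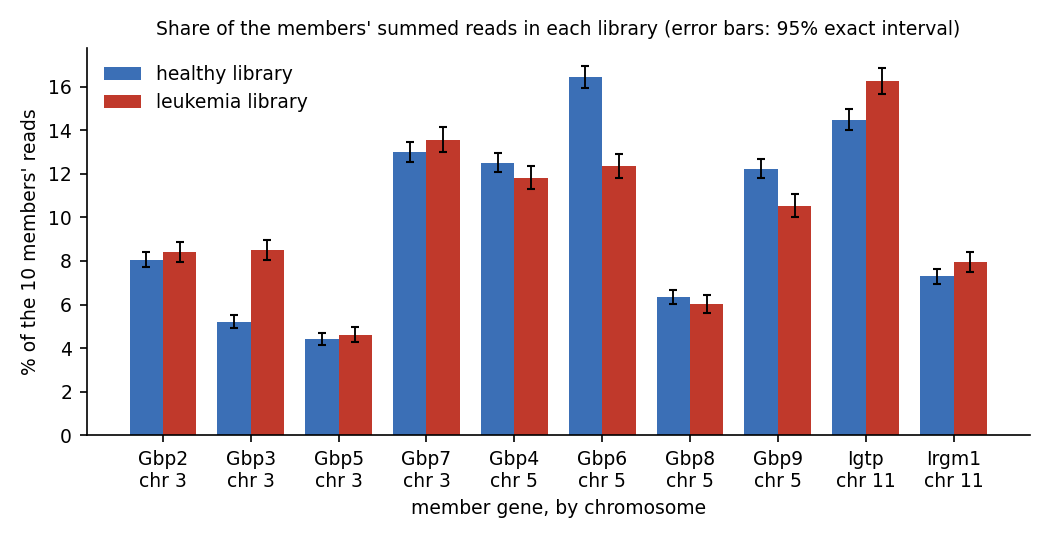
Percent of the 10 members' summed reads that fell on each member, in the healthy (blue) and leukemia (red) library, with exact 95% intervals. Gbp3 goes from 5.22% to 8.50% and Gbp6 from 16.4% to 12.4%, while the bars of Gbp2, Gbp5 and Gbp7 overlap in their intervals.

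The wider family of interferon-inducible GTPases was lower as well. Of 15 relatives found, all at 1 FPKM or more, 15 had a log2 ratio below 0, 13 had an interval below 1, and 3 were at least 2-fold lower, with a median of -0.44. Gbp10, on chromosome 5, stood at 34.7 and 14.0 FPKM, a read ratio of 0.405 (0.362 to 0.452). The lowest were the dynamin-like GTPases Mx1 (20.9 and 7.10 FPKM, read ratio 0.340) and Mx2 (11.6 and 3.71 FPKM, 0.323), which respond to type I interferon and which RefSeq lists as transcribed pseudogenes in the reference genome.
The very large GTPase Gvin1 and its near-identical neighbour Gm4070 summed to a read ratio of 0.519 (0.502 to 0.536). The effector GTPases of parasite vacuoles were nearer to the T cell baseline: Iigp1 (69.6 and 47.6 FPKM) was at 0.680 (0.633 to 0.731), and Tgtp1 and Tgtp2, which share most of their sequence, summed to 0.707 (0.671 to 0.745). Ifi47 (128 and 104 FPKM) was at 0.813 (0.761 to 0.868), above the T cell median. Irgm2, the third regulatory member beside Irgm1 and Igtp, was at 29.4 and 23.7 FPKM, a ratio of 0.808 (0.734 to 0.891). Gbp2b, a chromosome 3 relative next to Gbp2, was at 0.775 (0.685 to 0.877), and Gbp11 had at most 31 reads, so that its interval of 0.480 to 1.46 sets no direction. Summed with their relatives, chromosome 5 was at 0.540 (0.523 to 0.557), chromosome 3 at 0.740 (0.715 to 0.767) and chromosome 11 at 0.738 (0.717 to 0.759).

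Genes that carry the interferon-gamma signal were mixed. The ligand gene Ifng was at 12.9 and 5.92 FPKM, on 138 and 63 reads, a ratio of 0.458 (0.335 to 0.622). With a log2 ratio of -1.01, it was the 1 gene of this list at least 2-fold lower. The receptor chains were close to even, with Ifngr1 at 107 and 111 FPKM (1.04; 0.974 to 1.10) and Ifngr2 at 35.7 and 31.8 FPKM (0.891; 0.796 to 0.998). The receptor kinases Jak1 (159 and 102 FPKM) and Jak2 (40.2 and 28.6 FPKM) had read ratios of 0.643 (0.620 to 0.668) and 0.715 (0.664 to 0.770).
Irf1, a transcription factor that binds ISRE, was at 155 and 122 FPKM, 0.790 (0.748 to 0.834). The repressor Irf2 was at 0.822 (0.752 to 0.898) and Irf9, an ISRE-binding factor that partners Stat2, at 0.743 (0.686 to 0.805). Irf8, also a myeloid factor, was the 1 gene of this list at least 2-fold higher, at 19.1 and 76.2 FPKM, 3.99 (3.61 to 4.41).
Among the feedback inhibitors, Socs1 (35.2 and 40.5 FPKM) had an interval of 0.995 to 1.31, Socs3 was at 0.807 (0.749 to 0.870), and the phosphatase genes Ptpn2 and Ptpn11 at 0.797 and 1.19. In all, 11 of 15 genes of this list had an interval below 1 and 2 above 1, and the median log2 ratio was -0.29.

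Other targets of interferon-gamma lay on both sides of an even ratio. Of 28 response genes at 1 FPKM or more, 11 had an interval below 1 and 9 above 1, the median log2 ratio was -0.06, and 4 lay below the T cell median where 17 lay above it. Lower were the chemokine gene Cxcl10 (17.4 and 5.28 FPKM, log2 ratio -1.55), the Fc receptor gene Fcgr1 (-0.93, on 118 and 51 reads) and Parp14 (-0.78). Higher was Ifi30, a thiol reductase of antigen processing (46.6 and 85.0 FPKM, 0.85), which myeloid cells also express. The part of other cells in the values of this list, lower or higher, was not tested. Of the immunoproteasome subunits, named after their values were seen, Psmb8 was at 285 and 331 FPKM and Psmb9 at 136 and 176 FPKM, with read ratios of 1.21 and 1.27.

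The type I interferon response list had lower ratios than the GTPases. All 21 had an interval below the T cell median, 10 were at least 2-fold lower, and the log2 ratios ran from -1.78 (Oas2) to -0.64, with a median of -0.98. Of the members, Gbp6 (-1.05), Gbp9 (-0.88), Gbp4 (-0.70) and Gbp8 (-0.70) had ratios within that range, and the other 6 lay above it. Rsad2, an antiviral enzyme, had a read ratio of 0.257 (0.205 to 0.320), and Ifit1, which binds viral RNA, 0.310 (0.272 to 0.353). In the signalling list, the factors Stat2 (34.6 and 17.7 FPKM) and Irf7 (111 and 44.1 FPKM) were at 0.516 (0.471 to 0.566) and 0.405 (0.371 to 0.442), and the inhibitor Usp18 at 0.412 (0.363 to 0.467). The receptor gene Ifnar1 was at 0.776 (0.732 to 0.822) and Ifnar2 at 1.29 (1.20 to 1.40), while Irf3 and Tyk2 had intervals that hold 1. With 1 library in each group, the difference between the lists was not tested.

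**Figure D4:**
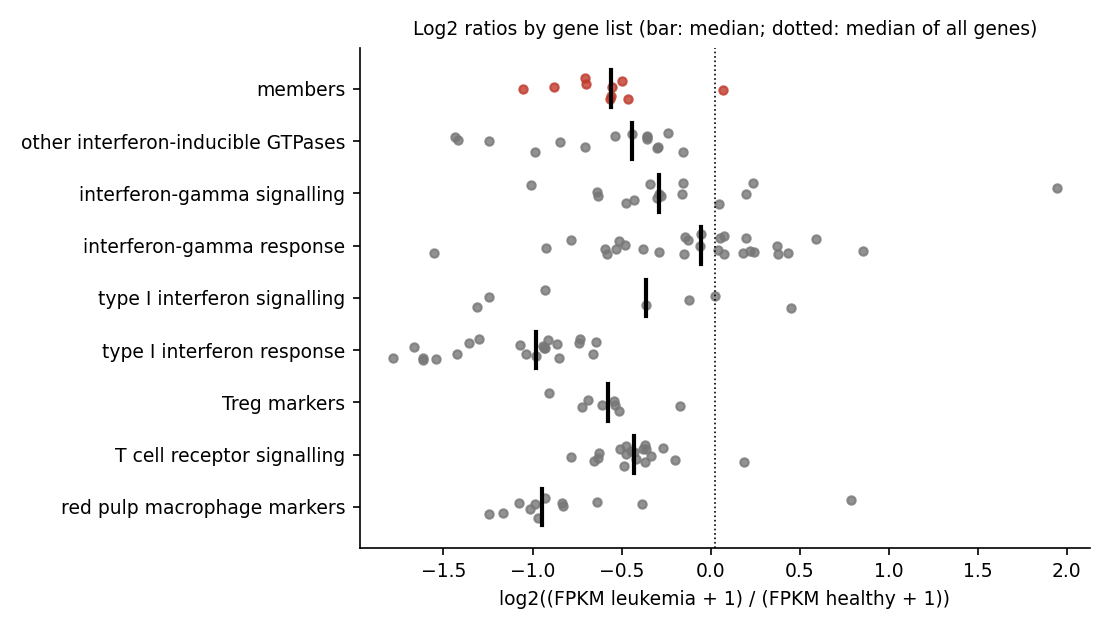
Log2((FPKM leukemia + 1) / (FPKM healthy + 1)) of genes that reached 1 FPKM in at least 1 library, by list, with a bar at each list's median and a dotted line at the median of all genes, 0.02. The members (red) centre on -0.56, beside the Treg markers. The type I interferon response list centres on -0.98 and the interferon-gamma response list on -0.06.

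The machinery that GBPs work with was mixed. Of 13 genes for autophagy conjugation and vacuole tagging, 6 had an interval below 1 and 1 above 1, and 1 was at least 2-fold lower: Rnf213, a giant ubiquitin ligase that interferon also induces, at 41.8 and 15.6 FPKM, a read ratio of 0.372 (0.355 to 0.390). The median was -0.24, with Gabarapl1 at 0.65, Gabarapl2 at -0.45 and Traf6 at -0.39. Of 7 inflammasome genes, 3 had an interval above 1 and 2 below 1, and the median was 0.06. The cytokine genes Il18 (23.6 and 12.2 FPKM) and Il1b (2.64 and 0.77 FPKM) were the lower ones. The higher ones were Nlrc4 (0.61 and 1.73 FPKM), whose read ratio was 2.93 (1.82 to 4.87), Pycard at 1.19 (1.06 to 1.34) and Gsdmd, named after its values were seen, at 1.19 (1.06 to 1.32). Among 7 genes of protein prenylation, the lipid modification that anchors Gbp2 and Gbp5, Fdps, an enzyme of the isoprenoid pathway, was at least 2-fold higher at 22.2 and 64.7 FPKM, 2.94 (2.54 to 3.41). The farnesyltransferase subunit genes Fntb and Fnta were at 1.49 (1.18 to 1.89) and 1.13 (0.994 to 1.28), and Ggps1 was at 0.765 (0.676 to 0.866).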

How the data were processed

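RNA of CD4+FOXP3-GFP+ cells from mouse spleen was sequenced in 2 libraries, 1 healthy and 1 leukemia, grouped by the disease state in the labels. The submitters' processing notes name Bowtie2 2.2.5 and RSEM. The RSEM version, genome build, annotation release and read length were not given in the sources used here. The authors deposited an expected count per gene, estimated by RSEM and not always whole, and FPKM to 2 decimals, per the file headers. A transcript length column was not used in any result. Expected counts summed to 8929601 (healthy) and 8897162 (leukemia).

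Of 23248 gene IDs, 21713 matched a RefSeq symbol by ID and 22 by accession; 1513 had none. A gene listed in 1 library was taken as 0 in the other. Genes that reached 1 FPKM in at least 1 library were kept, all 10 members among them. Log2 ratios used a pseudocount of 1 FPKM, which understates differences of low genes. Exact intervals (scipy 1.17.1) used counts rounded to whole numbers and were checked on simulated counts. They cover counting error only, compare 2 libraries and not the conditions, and take reads as independent molecules. Scaling with TMM used edgeR 4.0.16. Promoters came from RefSeq (GRCm38.p6) and transcripts from GENCODE M21; no protein sequences were used here.

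The members, gene lists and tests were chosen with earlier results of these data known. Named were all members, all measured relatives and interferon signalling genes, and of each other list at most 4 genes with the largest log2 ratios, besides Treg, macrophage and progenitor markers. One signalling gene is counted in its list but not reported here. Ccr2 and Kdr, outside that rule, were named after their values were seen. Alternatives were a pseudocount of 0.1 FPKM, other filters, other scalings, centring on T cell receptor signalling genes, rescaling without markers of other cells, and calling by the read-ratio interval.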

Additional observations from a re-analysis of the deposited data

How the results depend on the processing

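No paired analysis was possible because each group held 1 library, and no library could be left out. The count of members at least 2-fold lower, 1 on the deposited scale, became 0 when centred on T cell receptor signalling genes, 9 when called by a read-ratio interval below 1, and 6 by an interval below the T cell median, a rule added after seeing the data; the other 7 alternatives gave 1. The members' median log2 ratio of -0.56 became -0.14 when centred on T cell genes and lay between -0.64 and -0.56 otherwise. The log2 ratio of the members' summed FPKM was -0.59. It was -0.67 as TPM (FPKM rescaled to 1000000), -0.65 as CPM with TMM scaling, -0.67 with markers of other cells left out, and -0.16 when centred on T cell genes. For Gbp3 the sign changed as TPM (-0.0075) and with those markers left out (-0.0044). Of all genes, 267 were at least 2-fold lower and 898 higher on the deposited scale. The lower count was 493 with a pseudocount of 0.1 FPKM, 414 as TPM, 412 without markers of other cells and 135 with a filter of 5 FPKM, where the higher count was 590. Centring on T cell genes gave 160 lower and 1761 higher, and so moved the share of higher calls from 77.1% to 91.7%. Of the type I interferon response genes, 15 were 2-fold lower as TPM and 6 when centred. Of 121 named genes, 90 moved beyond their counting interval when centred and at most 14 under each other scaling or pseudocount, and none at 2-fold changed sign. Of 57 counts and medians of the other lists, 23 moved when centred. Depth is not the limit for the members, all with at least 650 reads in each library; the lack of replicates is.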
